A study of Mus musculus with 32 samples.

Results

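The difference between males and females that remained in the diseased kidney was examined in the 8 vehicle-treated Alport mice of a bulk RNA-seq series of 32 mice, chosen by their labels as 4 males and 4 females. Alport mice carried no intact copy of Col4a3 (genotype Col4a3-/-), the gene of a type IV collagen chain that the glomerular basement membrane needs, and control mice were heterozygous (Col4a3+/-). All were of the strain C57BL/6J-Col4a3tm1Dec and 25 weeks old, and RNA came from kidney cortex. Vehicle-treated mice ate a purified diet, while the other mice of the series received nicotinamide riboside (NR), a precursor of NAD, in that diet. The 4 male and 4 female vehicle-treated control mice, and the 4 male and 4 female NR-treated Alport mice, serve for comparison. Controls carry 1 disrupted allele, so no group is wild type. The table held 32544 genes, of which 28888 lie on autosomes, and 15483 autosomal genes had enough counts to be tested.

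The mouse kidney is one of the more sexually dimorphic organs. In the proximal tubule, testosterone maintains high levels of many transporters, cytochrome P450 enzymes and conjugating enzymes in males, and females express another set of transporters and enzymes there. Alport disease damages the glomerulus, and tubule loss, inflammation and fibrosis follow.

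Library totals ranged from 21451535 to 21763727 counts in male and from 19281368 to 24978942 in female Alport mice. Neither the totals (two-sided exact permutation p = 0.457, the smallest possible with 4 against 4 being 0.0286) nor the mitochondrial share (10.6% ± 0.809 in males and 10.3% ± 0.953 in females, SD, n = 4, exact permutation p = 0.6) differed past the threshold. Levels are given as CPM, counts scaled to a common library size with TMM factors, and differences as log2 fold changes, male minus female, with the standard error. The Y-linked RNA helicase Ddx3y stood at 63.3, 59.8, 50.7 and 57.0 CPM in male Alport mice 1 to 4 and at 0.845, 0.599, 0.492 and 0.994 in the females, so each library matched its labelled sex. Col4a3 stood at 59.5, 69.9, 57.6 and 87.8 CPM in male and 58.4, 84.0, 61.2 and 62.4 in female Alport mice, against 151 to 200 in male and 144 to 169 in female controls. It was lower in every Alport mouse, matching the genotypes, and transcript of the disrupted gene was still counted. The tubule marker Slc34a1, the main phosphate transporter of the proximal tubule, was abundant in each vehicle-treated library, at 2407 CPM or more.

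In Alport mice 1162 autosomal genes differed between the sexes (edgeR quasi-likelihood test, Benjamini-Hochberg adjustment, threshold 0.05), which is 7.51% of those tested. Males were higher for 737 genes (4.76%) and females for 425 (2.74%). At least a 2-fold difference was reached by 208 of them (1.34%), 127 higher in males and 81 in females. The count rested partly on single mice, since it was 622 without male mouse 4, 728 without male mouse 1 and 661 without female mouse 1, while the 2-fold count stayed between 164 and 263 over the 8 mice left out in turn. All 4 mice of one sex lay above all 4 of the other for 1888 autosomal genes (12.2%), among them 191 of the 208.

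Among the genes named by size on the male side were Slc7a13, Acsm3 and Kap. Genes were named by size only where the sexes did not overlap and the test was passed, so neither is a finding about them. Slc7a13, an amino acid transporter of the proximal tubule, stood at 296, 288, 182 and 327 CPM in the males and at 4.16, 4.28, 6.01 and 5.92 in the females. Male mouse 3 was the lowest male, and the difference was 5.75 ± 0.21 (adjusted p = 5.13e-12). Acsm3, a mitochondrial synthetase that activates medium-chain fatty acids, stood at 235, 339, 152 and 325 CPM in males and 4.65, 7.71, 5.03 and 6.15 in females. Male mouse 3 was again the lowest male (5.49 ± 0.28, adjusted p = 7.91e-10). Kap, the kidney androgen-regulated protein and a classical marker of androgen action in the tubule, reached 5386, 6388, 3634 and 6849.6 CPM in males and 346, 797, 230 and 259 in females. It was the most abundant of the male-high kidney genes, and its difference was 3.77 ± 0.48 (adjusted p = 0.000112).

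A further 7 male-high genes were named by size. Slco1a1, an organic anion transporter, stood at 62.0, 169, 17.2 and 125 CPM in males and 0.780, 1.68, 0.387 and 0.994 in females (6.63 ± 0.64, adjusted p = 5.27e-06). Its males spread widely. Pzp, a plasma protease inhibitor of the macroglobulin family, differed by 6.16 ± 0.47, and Apoh, a phospholipid-binding plasma protein, by 5.86 ± 0.27. Cyp2j13, a cytochrome P450, differed by 4.20 ± 0.34, Slc22a30, of the organic anion transporter family, by 3.78 ± 0.26, and Apcs, the serum amyloid P component, by 4.10 ± 0.53. Adjusted p for these 5 ranged from 2.27e-10 for Apoh to 0.000305 for Apcs. Apcs moved most with a single mouse, to 4.75 without female mouse 4. Neurog2, a transcription factor best known from developing neurons, was counted in every male, at 1.49, 0.768, 0.0806 and 2.67 CPM, and at 0 in all 4 females. Against a floor of 3 counts over the female group it was at least 44.4-fold higher in males (adjusted p = 0.00458), or at least 27.7-fold without male mouse 4.

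On the female side Ugt1a2, Slc22a29 and Cyp4a14 were among the genes named by size. Ugt1a2, a glucuronosyltransferase, stood at 656, 1329, 604 and 761 CPM in females and at 35.4, 13.8, 29.3 and 28.3 in males. The difference was -4.97 ± 0.33 (adjusted p = 4.45e-08). Slc22a29, an organic anion transporter family member, stood at 13.8, 32.6, 15.9 and 18.4 CPM in females and at 2.35, 0.981, 2.18 and 2.21 in males (-3.38 ± 0.29, adjusted p = 1.11e-06). Female mouse 2 was the highest and male mouse 2 the lowest. Cyp4a14, a fatty acid hydroxylase and PPAR-alpha target, stood at 349, 514, 204 and 327 CPM in females and 85.8, 17.3, 72.9 and 46.8 in males (-2.64 ± 0.55, adjusted p = 0.00656). Male levels of Cyp4a14 spread several-fold.

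The other female-high genes named by size averaged 14.0 CPM or less in the females, with Igf2 the highest. Slc17a2, of the sodium-phosphate transporter family, differed by -3.61 ± 0.46, Tmprss6, a membrane serine protease that regulates iron metabolism, by -3.24 ± 0.37, and Atp13a4, a P-type ATPase, by -2.80 ± 0.38. The secreted protein Lect2 differed by -3.42 ± 0.55 and the apolipoprotein Apoc1 by -2.58 ± 0.45. Adjusted p for these 5 ranged from 3.45e-05 for Tmprss6 to 0.00187 for Apoc1. Slc17a2 was -3.02 without female mouse 2. Igf2, the fetal growth factor, stood at 5.66, 32.8, 13.2 and 4.52 CPM in females and 1.45, 2.35, 2.98 and 1.88 in males (-2.69 ± 0.57, adjusted p = 0.0081). Much of that size came from female mouse 2, since it was -1.85 without that mouse, and limma-voom did not call it (adjusted p = 0.132, with a range of 0.000187 to 0.132 over the alternatives). Actbl2, an actin-like gene, was at 0 in all 4 males and at 2.50, 3.32, 2.32 and 2.03 CPM in females, at least 79.3-fold higher against the floor of 3 counts over the male group (adjusted p = 0.000186). It was at 0 in all 8 vehicle-treated controls as well, where no difference was detectable. NR-treated female Alport mice also held it, at 3.50, 2.65, 2.72 and 10.3 CPM, as did 1 NR-treated control female at 3.38, and 1 NR-treated Alport male at 0.0362. Its sequence resembles that of other actins, and how reads shared with them were counted is not stated.

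**Figure D1:**
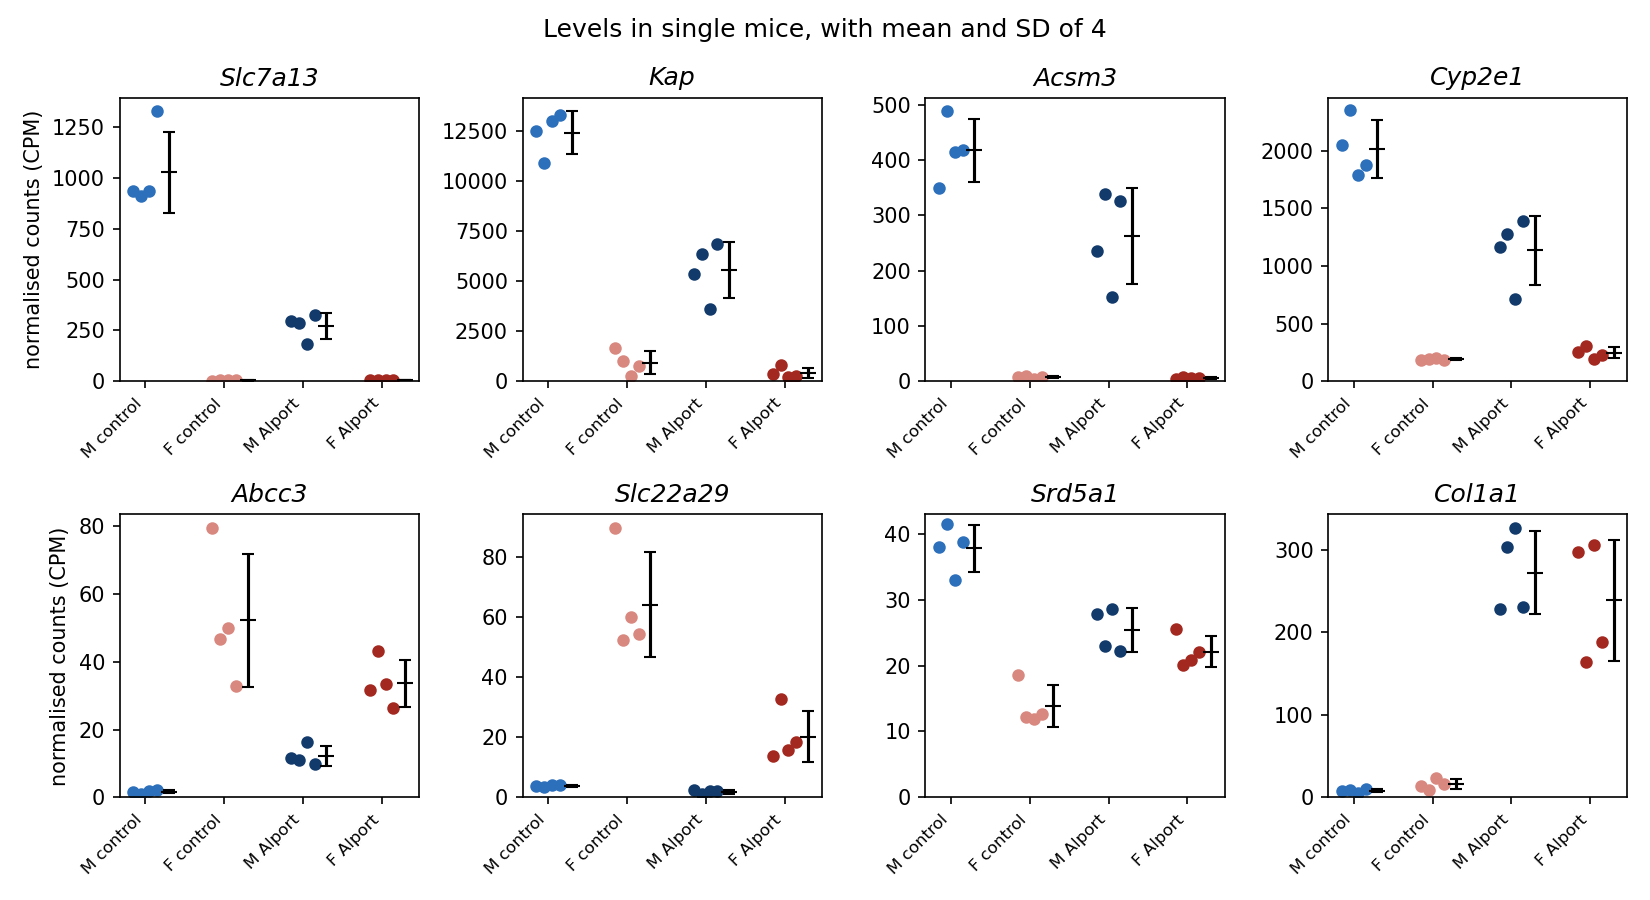
TMM-normalised CPM of 8 genes in single vehicle-treated mice (points), with the mean and SD of 4 beside each group. Slc7a13, Kap, Acsm3 and Cyp2e1 are higher in males of both genotypes, Abcc3 and Slc22a29 in females, while the sexes overlap in Alport mice for Srd5a1 and Col1a1.

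Controls give the measure against which these differences stand. Between male and female control mice 4468 autosomal genes differed (28.9%), 1855 higher in males and 2613 in females. Males were thus higher for 63.4% of the genes called in Alport mice and for 41.5% of those called in controls, a contrast that depends on the setting. In controls males and females were higher for 2301 and 2261 genes with other size factors, 2545 and 2556 in DESeq2, 1793 and 2223 in limma-voom, 2288 and 2292 with the 8 control mice fitted alone, and 1543 and 1161 with all 32 mice in 1 fit. In Alport mice the counts were 1094 and 645 in DESeq2, 766 and 451 in limma-voom, 306 and 271 with the 8 Alport mice fitted alone, and 183 and 166 with all 32. The Alport and control comparisons share no mouse, and 1037 genes passed both tests in the same direction, which is 89.2% of the Alport list and 23.2% of the control list. Of these, 657 were higher in males. The shared count was 578 without male Alport mouse 4, 682 without male Alport mouse 1 and 625 without female Alport mouse 1. In edgeR 0 genes passed both tests in opposite directions (18 did at an unadjusted p under 0.05, 1 each in DESeq2 and limma-voom).

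Of the 4468 genes called in controls 4021 had the same sign in Alport mice. Their median difference, signed by the control direction, was 0.524 in controls and 0.227 in Alport mice. A list chosen by a test in 1 set of mice tends to show smaller differences in another. The 1162 genes called in Alport mice had a median of 0.513 there and 0.605 in controls, with 30.6% of them smaller in controls. The part of selection in these medians was not tested. Among the 668 genes with at least a 2-fold difference in controls, 289 (43.3%) were called in Alport mice, and the median went from 1.43 to 0.705. Among the 65 with at least an 8-fold difference, 52 were called, and it went from 4.11 to 2.76.

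**Figure D2:**
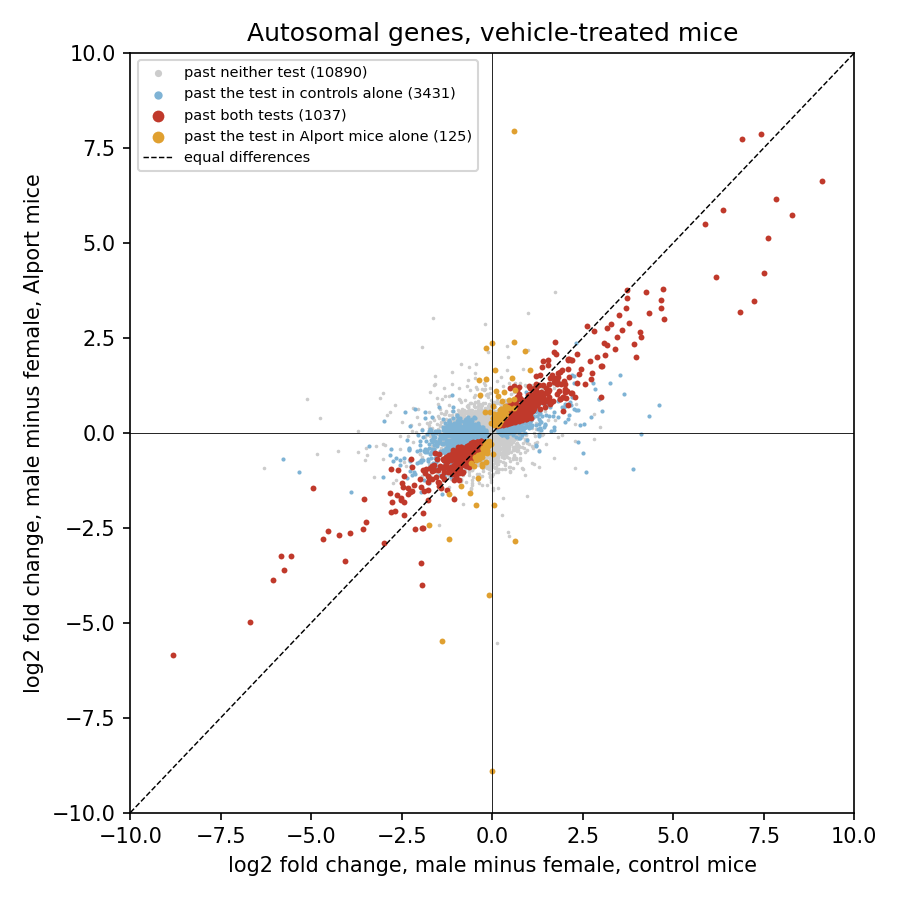
Log2 fold change between males and females in control mice (x axis) against that in Alport mice (y axis), 1 point for each of the 15483 autosomal genes tested, coloured by the tests passed. Points past both tests (1037) lie in the lower left and upper right. For 806 of them the difference was larger in controls, which places them on the x-axis side of the dashed line of equal differences. Fitted values of genes at 0 in a whole group, such as Neurog2 and Actbl2, have no exact size.

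The male-high and female-high sides of control dimorphism differed in how much of them was called in Alport mice. Of 281 genes at least 2-fold higher in control males, 180 (64.1%) were called male-high in Alport mice, with medians of 1.56 and 0.93. Of 387 at least 2-fold higher in control females, 109 (28.2%) were called female-high, with medians of -1.36 and -0.492. The shares were 64.6% and 30.5% in DESeq2, 62.7% and 30.5% in limma-voom and 63.4% and 29.1% with other size factors. Among the male-high genes the median level in males was 26.1 CPM in controls and 16 in Alport mice, and in females 7.13 and 7.09. Among the female-high genes it was 1.16 CPM in control males and 3.08 in Alport males, and 3.34 and 4.37 in females. The smaller gap thus went with a lower male level for the first set and with a higher male level for the second, and the part of the level of each set in these shares was not tested.

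Whether the difference itself changed with genotype was tested as the interaction of sex and genotype, which passed for 83 autosomal genes (0.536%), 57 with a positive and 26 with a negative value. With other size factors 49 passed, 22 positive and 27 negative, so the balance of signs depends on the scaling. The count was 21 without female Alport mouse 4, 51 without female 3 and 44 without female 1. It was 25, 42 and 38 without male Alport mice 1, 2 and 3, 54, 28 and 23 without female control mice 1, 3 and 4, and 32, 29 and 38 without male control mice 1, 2 and 4. In edgeR the difference was larger in size in controls for all 83, so 0 were larger in Alport mice (5 of 246 were in DESeq2, 2 of 43 in limma-voom, and 122 of 1875 at an unadjusted p under 0.05). Of the 83, 30 were called in both genotypes and 53 in controls alone. Among the 83, 21 are named in the text, of which 21 passed in DESeq2, 13 in limma-voom and 17 with other size factors. With each of the 16 mice left out in turn, 8 of the 21 passed every time, namely Slc7a13, Cyp2j13, Srd5a1, Clic6, Ugt2b37, Abcc3, Fgb and Gbp3. With all 32 mice in 1 fit 2 of the 21 passed, Srd5a1 and Abcc3. The interaction uses the same mice as both comparisons, so it gives the size of a change and no separate evidence.

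Named by the interaction among genes that were male-high in controls and not called in Alport mice were Col6a6, Slc13a5, Ugt2b5 and Srd5a1. Srd5a1, the reductase that makes dihydrotestosterone from testosterone, stood at 37.9, 41.4, 33.0 and 38.7 CPM in male and 18.6, 12.2, 11.9 and 12.6 in female controls. In Alport mice it stood at 27.8, 22.9, 28.6 and 22.2 in males and 25.5, 20.1, 20.8 and 22.1 in females. Control sexes were fully apart and Alport sexes overlapped, with an interaction of -1.25 ± 0.19 (adjusted p = 0.00702). Slc13a5, a citrate transporter, went from 3.65 in controls to 1.01 in Alport mice (interaction adjusted p = 0.032), Col6a6, a collagen VI chain, from 4.60 to 0.72 (0.0359), and the glucuronosyltransferase Ugt2b5 from 2.02 to 0.28 (0.0405). These 3 interactions were lost in limma-voom (adjusted p = 0.059, 0.143 and 0.059) and passed without 7, 5 and 4 of the 16 mice, with adjusted p up to 0.0781, 0.0887 and 0.0965. All 3 were lost with the replicate number as a block too. In Alport mice adjusted p was 0.0782 for Slc13a5 and 0.565 for Ugt2b5.

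On the female-high side Clic6, Ramp1, Padi2 and Capg were named by the same rule. Clic6, a chloride intracellular channel protein, stood at 0.159, 0.0426, 0.245 and 0.191 CPM in male and 7.64, 6.95, 5.10 and 6.30 in female controls, and at 2.0, 0.939, 4.91 and 1.88 in male and 3.97, 4.36, 4.18 and 7.59 in female Alport mice. Males were the group in which the genotypes differed most, and the interaction was 4.30 ± 0.66 (adjusted p = 0.00766). Its difference in Alport mice, -1.03 (adjusted p = 0.0938), did pass in DESeq2 and limma-voom and in edgeR without male mouse 3 (-1.63, adjusted p = 0.00287). Capg, an actin-capping protein abundant in macrophages, stood at 9.43, 6.86, 15.4 and 8.91 CPM in male and 43.7, 40.3, 50.4 and 26.3 in female controls, and at 58.6, 47.7, 75.6 and 45.3 in male and 73.8, 66.8, 65.7 and 57.5 in female Alport mice. Both Alport sexes were above every control female or close to the highest, and they overlapped (interaction 1.77 ± 0.31, adjusted p = 0.0189). Padi2, a peptidylarginine deiminase, went from -2.45 to -0.65 (interaction adjusted p = 0.0359), and Ramp1, a partner of the calcitonin-family receptors, from -1.85 to 0.54 (0.0416). Ramp1 lost its interaction in limma-voom (adjusted p = 0.0914), with other size factors (0.0582) and with the replicate number as a block. Ramp1 and Padi2 passed without 3 and 4 of the 16 mice (adjusted p up to 0.0988 and 0.0857), and Capg was lost without female Alport mouse 4 (0.0524).

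Among the 10 male-high genes named by size, the interaction passed for Slc7a13 and Cyp2j13. Slc7a13 went from 8.27 in controls to 5.75 in Alport mice (interaction -2.53 ± 0.27, adjusted p = 0.000179), with male controls at 938, 912, 935 and 1329 CPM. Cyp2j13 went from 7.52 to 4.20 (-3.32 ± 0.48, adjusted p = 0.00602). For Kap the interaction was 0.03 ± 0.61 (adjusted p = 0.997), although its level differed, male controls standing at 12513, 10917, 13006 and 13320.2 CPM and female controls at 1684, 1029, 250.2 and 773. Both sexes had lower Kap means in Alport mice, so the ratio between them was nearly the same.

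Of 30 genes known as male-high in mouse kidney, 20 were higher in males and 2 in females among Alport mice (73.3%, against 7.51% of all autosomal genes), with a median of 1.26 against 0.0115 for all autosomal genes. In controls the counts were 23 and 3 (86.7%, against 28.9%) and the median 2.01. The list's summed level was 14822, 17342, 9852 and 19832 CPM in male and 3179, 5222, 3627 and 3754 in female Alport mice, and 30729 to 34734 in male and 6019.5 to 7287 in female controls. Male mouse 3 was the lowest male and female mouse 2 the highest female, and no male overlapped a female. Cyp4b1, Cyp2e1 and Cyp7b1, cytochrome P450 enzymes of fatty acid, xenobiotic and oxysterol metabolism, differed by 2.88 ± 0.28, 2.20 ± 0.18 and 3.50 ± 0.43. Cyp4a12a, an arachidonic acid hydroxylase under androgen control, stood at 15.5, 54.0, 4.47 and 13.1 CPM in males and 2.47, 3.04, 1.97 and 1.36 in females (3.29 ± 0.57, or 2.30 without male mouse 2). The urate transporter Slc22a12 differed by 1.18 ± 0.15 and Slc22a28 by 3.11 ± 0.34. The classical androgen targets Odc1, the first enzyme of polyamine synthesis, and Gusb, the lysosomal beta-glucuronidase, did not pass (0.85 ± 0.29, adjusted p = 0.0889, and 0.28 ± 0.09, adjusted p = 0.0853). Both moved with single mice. Without male mouse 3 both passed, at 1.04 (adjusted p = 0.0258) and 0.33 (adjusted p = 0.044). Without male mouse 4 they were 0.43 (adjusted p = 0.427) and 0.23 (adjusted p = 0.285), and Gusb was 0.195 without female mouse 2 (adjusted p = 0.181).

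The 2 members that ran against the list's name were Gsta4 and Aadat. Gsta4, a glutathione transferase acting on lipid peroxidation products, stood at 67.5, 111, 75.5 and 109.7 CPM in female and 23.5, 16.2, 22.6 and 23.4 in male Alport mice (-2.08 ± 0.17, adjusted p = 4.82e-07). It was female-high in controls too (-2.79). Aadat, an aminotransferase of kynurenine and lysine breakdown, differed by -1.39 ± 0.34 (adjusted p = 0.0177). Much of that size came from female mouse 2, at 655 CPM against 152, 229.6 and 186 in the others. Without that mouse the difference was -0.70 and still passed. Of the 8 mice left out in turn, the call was lost without male mouse 2 alone (adjusted p = 0.0558).

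The interaction passed for 5 of the 30, against 0.536% of all autosomal genes, namely Slc7a13, Cyp2j13, Cyp2e1, Ugt2b37 and Ugt2b38. Ugt2b37, a glucuronosyltransferase of steroids and drugs, stood at 307, 239, 239 and 308 CPM in male and 1.62, 3.36, 1.60 and 2.93 in female controls. In Alport mice it stood at 157, 191, 102 and 264 in males and 21.7, 16.2, 23.4 and 17.2 in females, with an interaction of -3.65 ± 0.37 (adjusted p = 0.000138). Alport minus control, Ugt2b37 differed by -0.61 in males (adjusted p = 0.0296), with male Alport mouse 4 inside the range of the male controls, and by 3.04 in females (adjusted p = 6.44e-07). Ugt2b38 went from 3.92 to 2.34 and Cyp2e1 from 3.40 to 2.20 (interaction adjusted p = 0.0416 and 0.0365). They passed without 5 and 4 of the 16 mice (adjusted p up to 0.0957 and 0.0887), and Ugt2b38 was lost in limma-voom (0.0533). The Ugt2b genes lie in a cluster of close copies, as do Cyp4a12a and its neighbour, Slc22a28 to Slc22a30, and Cyp2a4 and Cyp2a5, so reads shared between copies make their single levels uncertain.

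Of 18 genes listed as female-high in kidney, 7 were higher in females and 5 in males among Alport mice (66.7%, against 7.51% of all autosomal genes, median -0.152). In controls 8 and 5 were (72.2%, against 28.9%, median -0.407). Prlr, the prolactin receptor, stood at 141, 208, 165 and 133 CPM in females and 52.0, 17.5, 73.7 and 40.5 in males (-1.82 ± 0.36, adjusted p = 0.00518). No male reached the lowest female. Abcc3, an efflux pump for conjugated bile acids and drugs, stood at 31.7, 43.0, 33.3 and 26.4 CPM in females and 11.7, 11, 16.4 and 9.74 in males (-1.46 ± 0.24). Control males were at 1.64, 0.980, 1.96 and 2.24 and control females at 79.5, 46.8, 49.8 and 32.8, and the interaction of 3.49 ± 0.38 was the only one of the 18 called in edgeR (adjusted p = 0.000209, with 2 called in DESeq2 and 1 in limma-voom). The others were Cyp4a14, Slc22a29, Cyp2d26 (-1.31 ± 0.14), the amino acid transporter Slc7a12 (-2.49 ± 0.62) and Akr1c18, which inactivates progesterone (-3.24 ± 0.69, or -2.36 without female mouse 2). Slc7a12 lost its call without male mouse 2 or 4 (adjusted p up to 0.0621, without mouse 4), and Akr1c18 was not called by limma-voom.

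The 5 that were higher in males in spite of the list's name were Cyp2a4, Cyp2a5, Adh1, Acsm2 and Ttr. Cyp2a4, a steroid hydroxylase, stood at 501, 442, 377 and 516 CPM in males and 97.6, 171, 117 and 101 in females (1.92 ± 0.18, adjusted p = 2.69e-06), and was male-high in controls too (2.10). Acsm2, a medium-chain acyl-CoA synthetase of the proximal tubule, differed by 1.60 ± 0.18, the alcohol dehydrogenase Adh1 by 1.01 ± 0.15 and Cyp2a5 by 2.14 ± 0.42. Ttr, the thyroid hormone carrier transthyretin, differed by 0.64 ± 0.16 (adjusted p = 0.0236) and lost its call without female mouse 1 or 3 or male mouse 2 or 4 (adjusted p up to 0.115, without male mouse 4).

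**Figure D3:**
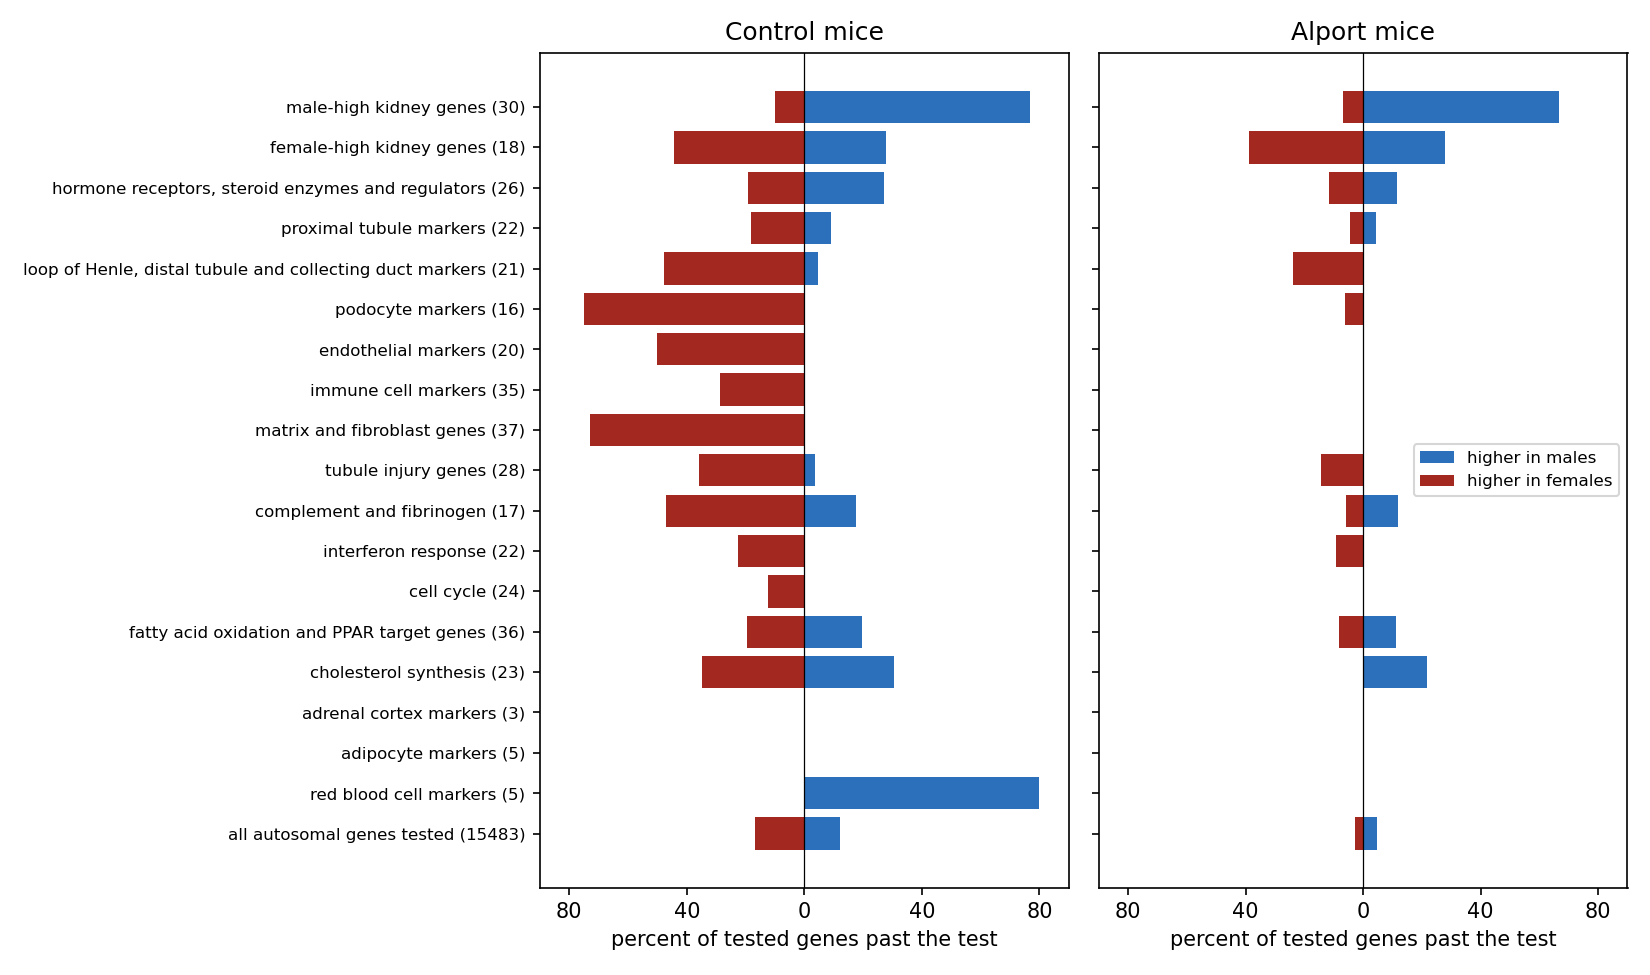
Percent of the tested autosomal genes of each list that passed the test between males and females, to the right where males and to the left where females were higher, in control mice (left) and Alport mice (right), with the number tested in brackets. Of 37 matrix and fibroblast genes 27 were female-high in controls (14 in limma-voom) and 0 passed in Alport mice, while of 30 male-high kidney genes 20 were higher in males and 2 in females in Alport mice. Of all autosomal genes 28.9% passed in controls and 7.51% in Alport mice.

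Of 26 hormone receptors, steroid enzymes and regulators tested, 3 were higher in males and 3 in females (23.1%, against 7.51% of all autosomal genes, median 0.0567), and in controls 7 and 5 (46.2%, against 28.9%, median -0.0652). Hsd17b2, which inactivates testosterone and estradiol, stood at 6.78, 7.29, 4.67 and 5.70 CPM in males and 1.82, 2.40, 1.27 and 0.768 in females (1.95 ± 0.32, adjusted p = 0.00107). Its relative Hsd17b11 was also male-high (0.82 ± 0.14, adjusted p = 0.00134), as was the estrogen receptor Esr1 (0.62 ± 0.17, adjusted p = 0.0304). Higher in females were Hsd11b2, which protects the mineralocorticoid receptor from glucocorticoids (-0.51 ± 0.13), the xenobiotic receptor Nr1i2 (-0.38 ± 0.09) and Cux2, a transcription factor known as female-specific in mouse liver (-0.46 ± 0.12). Calls were lost without single mice. For Esr1 these were females 1 and 3 and males 1 and 4 (adjusted p up to 0.119, without male 4), and for Hsd11b2 females 2 and 4 and males 1 and 2 (up to 0.0871, without female 4). For Nr1i2 they were female 3 and males 2 and 4 (up to 0.0758, without female 3), and for Cux2 female 3 and males 1, 2 and 4 (up to 0.0726, without male 2). The interaction passed for 1 of the 26 in edgeR, Srd5a1 (2 in DESeq2 and 1 in limma-voom).

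Cell type markers were counted next, since in bulk RNA fewer cells of a type and less RNA per cell cannot be told apart. Of 22 proximal tubule markers 1 was male-high, the glutathione-cleaving enzyme Ggt1 (0.67 ± 0.15), and 1 female-high, the amino acid exchanger Slc7a8 (-0.62 ± 0.11). Together they are 9.09% of the list, against 7.51% of all autosomal genes. Ggt1 lost its call with the 8 Alport mice fitted alone (adjusted p = 0.0807) and with all 32 mice in 1 fit (0.169). Slc34a1 did not pass (0.15 ± 0.17, adjusted p = 0.666). The list summed to 14706, 14388, 11180 and 17013 CPM in males and 10999, 17966, 13249.6 and 14040.3 in females, with the sexes overlapping, the lowest male again mouse 3 and the highest female mouse 2. Its median was -0.0739, against 1.26 for the male-high kidney genes. Of 21 markers of the loop of Henle, distal tubule and collecting duct, 5 were female-high (23.8%, against 7.51% of all autosomal genes) and 0 male-high in edgeR (0 in DESeq2 and limma-voom, and 10 in all at an unadjusted p under 0.05, both directions), with a median of -0.297. Over all 15483 autosomal genes 3375 had an unadjusted p under 0.05 between the sexes of Alport mice. In controls 10 of the 21 markers were female-high and 1 male-high (52.4%, against 28.9%), with a median of -0.47. The 5 were the sodium channel subunits Scnn1a, Scnn1b and Scnn1g, the thiazide-sensitive cotransporter Slc12a3 and the proton pump subunit Atp6v1b1, at -0.55 to -0.44. Scnn1b stood at 85.6, 88.1, 62.4 and 83.4 CPM in females and 61.6, 59.1, 56.4 and 58.0 in males. Every female was above every male. Slc12a3 (-0.55) lost its call without each mouse but female 3 and male 4 (adjusted p up to 0.0813, without female 4), and Scnn1g (-0.46) without females 2 and 4 and male 4 (up to 0.0624, without male 4). The part of the differing makeup of the 8 samples in these results was not tested.

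Of 16 podocyte markers 12 were female-high in controls (75%, against 28.9% of all autosomal genes, median -0.619) and 1 in Alport mice (6.25%, against 7.51% of all autosomal genes, median -0.00279), Npnt, a basement membrane protein (-0.43 ± 0.13, adjusted p = 0.0482), whose call was lost in limma-voom and without each mouse but female 4 and male 3 (adjusted p up to 0.168, without female 1). Nphs1, the slit diaphragm protein nephrin, stood at 38.0, 37.5, 27.4 and 27.1 CPM in male and 64.1, 56.8, 61.7 and 64.3 in female controls, and at 74.6, 72.5, 92.9 and 66.3 in male and 71.5, 94.5, 72.0 and 88.6 in female Alport mice. Its interaction was the only one of the 16 that passed in edgeR (0.83 ± 0.18, adjusted p = 0.0488), with 11 at an unadjusted p under 0.05, 5 in DESeq2 and 0 in limma-voom. For Nphs1 it was lost with other size factors too (adjusted p = 0.0699), and with the replicate number as a block. It passed without 1 of the 16 mice (adjusted p up to 0.11). Of 20 endothelial markers 10 were female-high in controls (50%, against 28.9%). In Alport mice 0 passed, against 7.51% of all autosomal genes (0 at an unadjusted p under 0.05, in DESeq2 and in limma-voom). Their interaction passed for 0 in edgeR, DESeq2 and limma-voom and for 12 at an unadjusted p under 0.05. Over all 15483 autosomal genes the interaction passed for 83 in edgeR (0.536%), and 1875 had an unadjusted p under 0.05.

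Summed over each list, immune and matrix genes stood at a higher level in every Alport mouse than in any control, with the sexes of Alport mice overlapping. The genotypes were not compared by a test for these sums. The 36 immune markers, led by Cd74, the invariant chain of antigen presentation, summed to 3311, 3078, 3335 and 2533 CPM in male and 3586, 2139.6, 3189 and 3178 in female Alport mice, against 351 to 413 in male and 386 to 843 in female controls. Of 35 tested, 0 passed between the sexes in Alport mice in edgeR, DESeq2 or limma-voom, where edgeR called 7.51% of all autosomal genes. At an unadjusted p under 0.05 the count was 0 too, against 3375 of all 15483 autosomal genes. In controls 10 of the 35 were female-high (28.6%, against 28.9% of all autosomal genes), or 14 in DESeq2, 5 in limma-voom and 6 with other size factors. Their interaction passed for 0 of the 35 by the same 3 tools and for 9 at an unadjusted p under 0.05. The 39 matrix and fibroblast genes summed to 4034, 4378, 5339 and 3446 CPM in male and 4468, 3186, 4763 and 3526 in female Alport mice. Of 37 tested, 27 were female-high in controls (73%, against 28.9%, median -0.718, with 14 in limma-voom). In Alport mice 0 of the 37 passed, against 7.51% of all autosomal genes (median 0.112, with 1 at an unadjusted p under 0.05 and 0 in DESeq2 and limma-voom). Col1a1, the main fibrillar collagen, stood at 228, 303, 327 and 231 CPM in male and 297, 164, 306 and 188 in female Alport mice, and at 5.89 to 10.1 in male and 9.31 to 23.6 in female controls. The interaction passed for Col1a2 (1.14 ± 0.25, adjusted p = 0.0486) and Col5a2 (1.01 ± 0.20, adjusted p = 0.032), with 30 of the 37 at an unadjusted p under 0.05, 10 in DESeq2 and 1 in limma-voom. Over all autosomal genes 83 of 15483 passed (0.536%) and 1875 had an unadjusted p under 0.05, with 246 in DESeq2 and 43 in limma-voom. For Col1a2 it was lost in limma-voom (adjusted p = 0.067) and with other size factors (0.0738). The Col1a2 interaction was lost as well with the replicate number as a block and with at least 10 counts required in every mouse. Col1a2 and Col5a2 passed without 2 and 7 of the 16 mice (up to 0.111 and 0.0738).

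Of 28 tubule injury genes 4 were female-high in Alport mice (14.3%, against 7.51% of all autosomal genes), the matrix phosphoprotein Spp1, the chaperone Clu, the stem cell marker Prom1 and the keratin Krt7. The list's median was 0.0167, with positive values for 15 of the 28. In edgeR 0 were male-high, and DESeq2 and limma-voom each called 1 male-high. In controls 10 were female-high and 1 male-high (39.3%, against 28.9%, median -0.455). Spp1 stood at 11181, 7414, 9874 and 7644 CPM in females and 5977, 6999, 5949.8 and 5921 in males (-0.54 ± 0.15, adjusted p = 0.0337). The lowest female was close to the highest male, and its call was lost in limma-voom and without females 1 and 3 or males 1, 3 and 4, each left out in turn (adjusted p up to 0.114, without female 1). Prom1 differed by -0.55 ± 0.12 and Clu by -0.71 ± 0.15, and Krt7 (-0.46 ± 0.11) lost its call without female 1 or male 1, 2 or 4 (adjusted p up to 0.078, without female 1). The interaction passed for Spp1 (1.05 ± 0.21, adjusted p = 0.0359) and Prom1 (0.91 ± 0.17, adjusted p = 0.028), both female-high in controls by more. For Spp1 it was lost with other size factors (adjusted p = 0.0532), and Spp1 and Prom1 passed without 6 and 7 of the 16 mice (up to 0.0826 and 0.0696). Havcr1, a marker of proximal tubule injury also known as KIM-1, stood at 119, 296, 139 and 142 CPM in males and 168, 82.2, 128 and 55.2 in females, and Lcn2 at 65.8, 58.0, 73.2 and 68.9 in males and 129.8, 57.9, 89.9 and 101 in females. Neither passed, and their sexes overlapped.

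Of 17 complement and fibrinogen genes 2 were male-high, the complement factor C4b (1.17 ± 0.26, adjusted p = 0.0113) and the fibrinogen chain Fgg (0.55 ± 0.11, adjusted p = 0.00432), and 1 female-high, the complement regulator Cfi (-0.66 ± 0.16, adjusted p = 0.0168, lost without female 1 or male 4, up to 0.0651 without female 1). These are 17.6% of the list, against 7.51% of all autosomal genes, and DESeq2 called 4 male-high. C4b stood at 115, 149, 94.9 and 105 CPM in males and 53.6, 35.6, 61.1 and 55.5 in females, with a clear gap. C3 stood at 1268, 1306, 1446 and 1257 CPM in males and 2272, 1143, 2326 and 1809.7 in females and did not pass (-0.52 ± 0.19, adjusted p = 0.113), but did without female 2, the lowest (-0.69, adjusted p = 0.00956). The interaction passed for Fgb, another fibrinogen chain (1.67 ± 0.27, adjusted p = 0.0132), and was lost in limma-voom (0.06). Of 22 interferon response genes 2 were female-high in edgeR (9.09%, against 7.51% of all autosomal genes) and 5 each in DESeq2 and limma-voom, with a median of -0.311 and positive values for 2. The 2 called in edgeR were the guanylate-binding protein Gbp3 (-0.68 ± 0.15) and the transcription factor Irf7 (-0.35 ± 0.10, adjusted p = 0.0371, lost without females 1 and 3 and males 1, 2 and 4 in turn, up to 0.135 without female 1), and Gbp3 had a larger female excess in controls (-2.23, interaction adjusted p = 0.00702). Of 24 cell cycle genes 0 passed in edgeR, DESeq2 and limma-voom, and 0 at an unadjusted p under 0.05.

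Of 36 genes of fatty acid oxidation and PPAR targets, 4 were male-high (Crot, Acads and Etfdh among them) and 3 female-high (Acot3, Acsl1 and Fabp1), which is 19.4% against 7.51% of all autosomal genes, with a median of 0.149. In controls 7 and 7 were (38.9%, against 28.9%), with 13 male-high in DESeq2. Crot, the peroxisomal octanoyltransferase, differed by 0.70 ± 0.13, and Acads, a mitochondrial dehydrogenase of short-chain acyl-CoA, by 0.46 ± 0.10. Acot3, a peroxisomal thioesterase, differed by -1.21 ± 0.22 and Acsl1, a long-chain acyl-CoA synthetase, by -0.71 ± 0.15. Calls were lost without single mice for Acads (adjusted p = 0.0516, without male mouse 4), the electron transfer enzyme Etfdh (0.34, each mouse but female 2 and male 3, up to 0.198 without male 4) and the fatty acid binding protein Fabp1 (-1.75, female 4 and males 2 and 4, up to 0.0711 without male 4). The list's interaction passed for 0 genes in edgeR, DESeq2 and limma-voom, and for 1 at an unadjusted p under 0.05. Of 23 cholesterol synthesis genes 5 were male-high (21.7%, against 7.51%) and 0 female-high in edgeR and limma-voom (1 female-high in DESeq2, and 11 past an unadjusted p of 0.05 in both directions), among them Idi1 (0.82 ± 0.16), Hmgcs1 (0.54 ± 0.13), Mvd (0.54 ± 0.11) and Sqle (0.46 ± 0.11). In Alport mice 3375 of all 15483 autosomal genes were past an unadjusted p of 0.05. Of the 23, controls had 7 male-high and 8 female-high (65.2%, against 28.9%). Hmgcs1 lost its call without female 1 or 4 or male 4, and Sqle without female 4 or male 4 (adjusted p up to 0.0808 and 0.0735, both without male 4).

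Fitted with the 8 Alport mice alone, Aadat, Esr1, Nr1i2, Cux2, Slc12a3, Npnt, Spp1, Clu, Krt7, Irf7, Acads, Etfdh, Hmgcs1 and Ttr also lost their calls (adjusted p up to 0.166, for Etfdh). With all 32 mice in 1 fit the calls lost besides Ggt1 were those of Akr1c18, Cyp2a5, Esr1, Hsd11b2, Nr1i2, Cux2, Slc12a3, Atp6v1b1, Npnt, Spp1, Krt7, C4b, Fgg, Cfi, Gbp3, Irf7, Acsl1, Fabp1, Acads, Etfdh, Idi1, Hmgcs1, Sqle, Mvd and Ttr (up to 0.553, for Fgg). Esr1, Irf7 and Etfdh lost theirs with the replicate number as a block too, and Etfdh with no filter on low counts.

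Markers of other tissues that cortex samples can hold gave no call in Alport mice, where 7.51% of all autosomal genes were called. With 3 to 5 markers tested per list, 0 calls is near that share. Of 3 adrenal cortex and 5 adipocyte markers tested 0 passed in edgeR, DESeq2 or limma-voom or at an unadjusted p under 0.05, and the adipocyte markers Adipoq and Lep were at 0 in all 8 mice. Adrenal markers summed to 6.143 to 10.35 CPM in males and 7.312 to 9.085 in females. Of 5 red blood cell markers 0 passed in Alport mice in these 3 tools (1 at an unadjusted p under 0.05, median 0.625), and 4 were male-high in controls, where 28.9% of all autosomal genes were called.

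Families were set by the start of the symbol. Among those with over 10 genes tested, Ugt genes had the largest share of dimorphic members. Of 17 Ugt genes 8 were male-high and 3 female-high (64.7%, against 7.51% of all autosomal genes). Their interaction passed for 4 of the 17, against 0.536% of all autosomal genes. Of 15 Akr1 aldo-keto reductases 4 were higher in males and 4 in females (53.3%), of 24 Slc22a organic ion transporters 6 were male-high and 3 female-high, of 16 Hsd steroid dehydrogenases 4 and 2, and of 56 Cyp genes 13 and 4 (12 and 7 in DESeq2). Male-high in edgeR were 4 of 10 Ces carboxylesterases and 2 of 10 Slco transporters, and 0 were female-high (1 Ces gene was in DESeq2 and 0 in limma-voom, with 7 and 3 past an unadjusted p of 0.05 in either direction). Over all autosomal genes 3375 of 15483 were past that unadjusted p in Alport mice. Acsm synthetases had 2 male-high and 1 female-high of 4, Gst transferases 1 and 2 of 20, Slc7a amino acid transporters 1 and 2 of 13, and Abc transporters 1 and 1 of 40. In the Col family 1 of 38 was male-high, against 5 male-high and 14 female-high in controls (50%, against 28.9%), where limma-voom called 8 female-high. For 8 Sult, 11 Serpina and 26 H2- genes 0 passed in edgeR (1, 2 and 1 at an unadjusted p under 0.05, 1, 0 and 0 in DESeq2, and 0 in limma-voom), and of the Mup genes 0 had enough counts to test.

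Dimorphic genes lay on every autosome, at 6.51% to 9.51% of the genes tested on each. Of the 208 genes with at least a 2-fold difference, 32 (15.4%) sat next to another one of the same direction, in 15 runs of 2 or 3 neighbours. Female-high Ugt1a2, Dnajb3 and Ugt1a1 lie together at chr1:88200601-88218997, where Ugt1a transcripts share exons, so their reads cannot be fully separated. Male-high Nat8f6, Nat8f5 and Nat8, N-acetyltransferase copies, lie at chr6:85808024-85832082, and Adh7 and Adh1 at chr3:138217760-138290698 (build mm10). These runs were chosen for mention after their values were seen.

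Promoters were read for genes with one in RefSeq on GRCm38, since steroid hormones and STAT5 are known regulators of sex-biased genes. The window searched ran from 250 bases before the transcription start to 50 bases after it. The steroid receptor half-site sought was AGAACA on either strand. In that window it was held by 21.3% of 94 male-high and 24.5% of 49 female-high genes with at least a 2-fold difference. The share was 15.3% of 11322 autosomal genes tested. Over all genes called the shares were 16.3% and 17.1%, close to that of all genes. The full element (AGAACA, any 3 bases, TGTTCT) was found in 1 of the 49, Sgk1, a kinase that regulates sodium transport and is named here after its values were seen, and in 2 of the 11322. The STAT5 core (TTCNNNGAA) was held by 5.32% of the 94 and 14.3% of the 49, against 8.54% of all genes, and over all genes called by 7.28% of 563 male-high and 8.06% of 310 female-high genes. A match is a run of letters and not a measured binding site. The promoters of Pzp and Apcs, male-high, and of Slc17a2, female-high, are shown because they are among the genes named by size whose window holds a match, with matches in capitals. Printed are the 250 bases before the start of each, at chr6:128526721-128526970 (minus strand), chr1:172895055-172895304 (minus strand) and chr13:23806743-23806992 (plus strand). Pzp and Apcs hold a half-site, and Apcs and Slc17a2 a STAT5 core.
Pzp: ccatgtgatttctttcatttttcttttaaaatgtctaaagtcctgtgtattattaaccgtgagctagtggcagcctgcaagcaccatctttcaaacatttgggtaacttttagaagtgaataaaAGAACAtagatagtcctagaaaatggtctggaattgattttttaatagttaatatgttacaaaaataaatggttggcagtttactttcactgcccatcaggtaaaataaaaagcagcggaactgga
Apcs: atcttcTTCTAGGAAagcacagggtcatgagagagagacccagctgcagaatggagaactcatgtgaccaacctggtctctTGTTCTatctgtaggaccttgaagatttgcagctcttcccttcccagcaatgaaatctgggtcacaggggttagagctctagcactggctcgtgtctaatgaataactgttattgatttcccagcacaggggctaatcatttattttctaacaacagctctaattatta
Slc17a2: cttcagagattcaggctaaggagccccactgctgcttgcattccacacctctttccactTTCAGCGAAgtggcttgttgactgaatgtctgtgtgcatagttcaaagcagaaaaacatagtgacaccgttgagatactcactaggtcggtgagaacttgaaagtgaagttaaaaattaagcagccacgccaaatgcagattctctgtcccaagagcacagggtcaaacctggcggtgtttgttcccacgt

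NR-treated Alport mice give the same comparison in other animals. There 20 of 15054 autosomal genes passed (0.133%), 15 male-high and 5 female-high. With other size factors these were 16 and 9, in limma-voom 12 and 8, and in DESeq2 94 and 114. They were 3 and 5 with the 8 NR-treated Alport mice fitted alone and 129 and 139 with all 32 mice in 1 fit, so the balance depends on the setting. The count was 10 without female mouse 3, 70 without male mouse 1 and 60 without male mouse 3 of those groups. Of the 20, 18 (90%) were called in the same direction in vehicle-treated Alport mice, which is 1.57% of the 1145 genes called there and tested in both, and 93.9% of the 1145 had the same sign. The median of the 1145 was 0.506 with vehicle and 0.326 with NR. Since the 1145 were chosen by the test in vehicle-treated mice, a smaller median in other mice can come from that choice. Its part was not tested. Among the 18 were Slc7a13 (5.88, adjusted p = 0.00145), Acsm3 (4.17), Apoh (3.41), Cyp2j13 (5.67), Slc22a30 (4.14) and Hsd17b2 (1.63). The other 2, chosen for mention after their values were seen, were Hkdc1, a hexokinase domain protein (-0.997 with NR and -0.43 with vehicle), and the alanine transaminase Gpt2 (0.76 and 0.36). Slc7a13 in NR-treated males spread over 83.4, 162, 23.0 and 456 CPM, far wider than in vehicle-treated males, with females at 1.92, 2.04, 3.45 and 4.79. Kap was 5.72 (adjusted p = 0.0598). Whether NR changed the difference was not tested.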

How the data were processed

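Poly(A) RNA from kidney cortex was sequenced, and the authors aligned and counted the reads with BioJupies (genome build mm10 per the labels) and deposited whole-number counts per gene symbol and mouse. The aligner's version, the annotation and the use of strand are not given in the sources used here. The deposited log-scaled copy of these counts was not used. Vehicle-treated mice (16, in 4 groups by sex and genotype) were fitted together in edgeR 4.0.16 (R 4.3.3), with edgeR's minimum count of 10, TMM scaling, the quasi-likelihood test and Benjamini-Hochberg adjustment over genes on all chromosomes, with a threshold of 0.05. NR-treated mice were fitted apart. DESeq2 1.42.0, limma-voom (limma 3.58.1), DESeq2-type size factors, other filters, thresholds, sets of mice, a block on the replicate number and each mouse left out were alternatives. The steps were tested on simulated data.

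Chromosomes came from GENCODE M21 and RefSeq (31462 symbols matched by GENCODE, 27 by RefSeq's present and 525 by its older symbols, 8 ambiguous and 522 unmatched of 32544). Genes were named by size, leaving out predicted and clone-named symbols, as the 10 largest differences in each direction among autosomal genes past the threshold, at least 2-fold, whose sexes did not overlap and whose higher group averaged at least 1 CPM, then the 4 most extreme interactions in each direction among genes called in controls and not in Alport mice. Genes called in Alport mice alone with an interaction, or in opposite directions, were to be named too, and none was found in edgeR. Lists were male-high and female-high kidney genes, hormone and steroid genes, markers of proximal tubule, distal tubule, podocytes, endothelium, immune cells, matrix, adrenal cortex, fat and red blood cells, genes of injury, complement, interferon, cell cycle, fatty acid oxidation and cholesterol synthesis, and gene families by the start of their symbol. Members and lists were chosen with earlier results of these data known. Examples from lists were chosen after their values were seen. Totals were 19281368 to 27778797 counts per vehicle-treated mouse, so genes below 1 CPM rest on few counts, and floors cover counting error only.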

Additional observations from a re-analysis of the deposited data

Results flagged for a closer look

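In 27 of 379 groups of 4 mice checked by Dixon's test at its 95% critical value, the highest or lowest mouse stood far from the others. Chance flags about 1 in 20 groups, and no explanation was tested for any of them.

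Among male Alport mice, mouse 2 stood apart for Slc22a29 (0.981 CPM, low), Gsta4 (16.2, low), Havcr1 (296, high), Spp1 (6999, high) and the Y-linked Kdm5d (32.3, high). Mouse 3 did for Slc22a12 (521, low), Slc12a3 (526, low) and Npnt (199, high), and mouse 4 for Ugt2b5 (8.59, high) and Scnn1g (35.6, low). Among female Alport mice, mouse 2 was high for Aadat (655), Acsl1 (299.8) and Col4a3 (84.0), and mouse 4 for Clic6 (7.59).

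Among male controls, mouse 1 stood apart for Cfi (4.24 CPM, high) and Ttr (62.2, low), mouse 3 for Neurog2 (5.94), Cyp4a14 (118) and Acot3 (45.6), all high, and mouse 4 for Slc7a13 (1329, high) and Scnn1g (40, low). Among female controls, mouse 1 was high for Srd5a1 (18.6) and Acsm2 (1793), mouse 2 for Cyp4a12a (4.67), and mouse 3 for Hsd17b11 (125) and Acot3 (104), while mouse 4 was low for Cyp2a4 (144).

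For 21 of the genes named, the difference between the sexes itself differed between Alport and control mice by the interaction test. The log2 interaction, Alport minus control, was -2.53 for Slc7a13, -3.32 for Cyp2j13, -3.88 for Col6a6, -2.63 for Slc13a5, -1.74 for Ugt2b5, -1.25 for Srd5a1, -1.20 for Cyp2e1, -3.65 for Ugt2b37 and -1.58 for Ugt2b38, which were all male-high in controls. It was 4.30 for Clic6, 2.39 for Ramp1, 1.80 for Padi2, 1.77 for Capg, 3.49 for Abcc3, 0.83 for Nphs1, 1.14 for Col1a2, 1.01 for Col5a2, 1.05 for Spp1, 0.915 for Prom1, 1.67 for Fgb and 1.55 for Gbp3, which were all female-high in controls.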

How the results depend on the processing

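The count of 208 genes with at least a 2-fold difference in Alport mice stayed within 1.5 times under every alternative run (139 to 213, and 164 to 263 over mice left out). Other counts moved, and the cause was not tested except where fewer mice or a stricter threshold enter by construction. At an adjusted p under 0.01, 432 genes differed in Alport mice, 2498 in controls, 405 in both in the same direction, 11 in NR-treated Alport mice, and 11 had an interaction. With the 8 mice compared alone, 577 differed in Alport mice (306 male-high and 271 female-high), 530 in both, and 8 with NR. With all 32 mice in 1 fit, these were 349, 317 and 268, with 2704 in controls and 5 interactions. The interaction count of 83 was 246 in DESeq2, 43 in limma-voom, 49 with other size factors and 44 at a size of at least 2-fold. The NR count of 20 was 208 in DESeq2 and 34 with no filter on low counts.

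With mice left out in turn, counts were 622 to 1631 in Alport mice, 3517 to 4142 in controls, 578 to 1403 in both, 21 to 89 for the interaction and 10 to 70 with NR.

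With the replicate number as a block (replicate block), 1130 genes differed in Alport mice, 4359 in controls, 1011 in both and 31 with NR, and 67 had an interaction. Residuals of mice with equal numbers correlated across genes at -0.186 to 0.0804, and the labels do not say that numbers pair mice.

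For 101 named genes, 1552 of 1693 values under alternatives kept their direction and side of the threshold, 117 lost the call, 6 gained it and 18 moved near 0. The 20 genes named by size kept their calls without each of the 8 mice. Depth limits what can be said of genes at or near 0.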

Other observations

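On the sex chromosomes, 37 of 555 X-linked genes tested differed between male and female Alport mice, 17 higher in males and 20 in females. Of the 15483 autosomal genes tested 1162 differed (7.51%). Of 19 Y-linked genes tested 7 were called, all higher in males.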
